A study of Drosophila melanogaster with 6 samples.

Results

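The Cpr genes of Drosophila melanogaster encode cuticular proteins. They were taken here as the genes of the deposited table whose FlyBase symbol is Cpr followed by a number, which gave 69 of 17753 listed genes. RNA was measured by sequencing of whole adult heads after depletion of ribosomal RNA. The control group was the stock wBerlin and the other group was a knockout of Kdm3 (Kdm3 KO), a gene that encodes a histone demethylase of the JmjC class, with 3 biological replicates in each group. Each replicate held 50 heads of flies collected 2 to 7 days after eclosion, and both groups were kept at 25 °C and 70% relative humidity on cornmeal and agar food. How the knockout allele was made, whether both stocks share a genetic background, the sex of the flies, the spread of ages within each replicate and whether replicates came from separate vials are matters on which the sources used here give nothing. Other differences between the stocks would therefore appear in the same contrast, and p-values measure only the spread between these samples, which may be technical.

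Insect cuticle is a layered extracellular matrix of chitin fibres and proteins that epidermal cells secrete at their apical surface. Cpr proteins carry the Rebers and Riddiford consensus, a conserved domain that binds chitin, and individual members are made in particular body regions and at particular times of the moult. In the adult fly, the outer layers are laid down before eclosion, and endocuticle is added and the cuticle is tanned around and after eclosion. In a head such proteins line the head capsule, antennae, mouthparts, foregut and tracheae, and the corneal lens of the eye is also a cuticular structure.

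Kdm3 itself (FBgn0037703, 3R:9516007-9520938, BDGP6) measured 32.5, 30.1 and 28.7 CPM (counts scaled to the TMM-adjusted size of each library) in wBerlin replicates 1, 2 and 3 and 3.86, 0.642 and 0.710 CPM in Kdm3 KO replicates 1, 2 and 3. It was 17.0-fold lower in Kdm3 KO, a log2 fold change of -4.09 (SE 0.49, adjusted p = 0.00344), as its label says. Kdm3 KO replicate 1 held the most Kdm3 reads of its group, and without it the log2 fold change was -5.47. Total counts were between 19850981 and 28237382 per library, so that 3 counts, the limit that a count of 0 allows, corresponded to between 0.108 and 0.138 CPM. A pair of libraries stood apart in ways that touch the Cpr genes. Kdm3 KO replicate 2 had 87.8 CPM of the flight muscle gene TpnC4, against at most 2.26 CPM in every other library, and it was the highest of the 6 libraries for 74.5% of all tested genes with a mean under 3 CPM. wBerlin replicate 1 held 56.7 CPM of antennal proteins summed over 12 listed genes in the table, against 338 and 457 CPM in the other wBerlin replicates and 24.8, 46.1 and 41.4 CPM in Kdm3 KO. Its summed level of 18 muscle genes, 27530 CPM, lay below the 42840 and 53590 CPM of the other wBerlin replicates and inside the Kdm3 KO range of 21400 to 31710 CPM.

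The 69 Cpr genes lie on all 5 major arms, with 34 on 3L, 21 on 2R, 5 on 2L, 5 on 3R and 4 on X. Many are tandem neighbours: 48 of them fall in 12 clusters whose members are less than 20 kb apart, the largest being the 8 genes at 49A on 2R. The 5 members on 3R, the arm of Kdm3, lie between 10.1 and 21.3 Mb from it. Their summed exon lengths run from 389 to 4525 bp with a median of 858 bp.

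Expression was uneven within the family. Only 19 members had a mean of at least 10 CPM over the 6 libraries, 9 of those had at least 100 CPM, and 41 members were under 3 CPM. The 10 most abundant members carried 77.2% of all Cpr counts. Listed at 0 in every library were Cpr57A, Cpr65Ax1 and Cpr65Ax2. Cpr65Ax1 and Cpr65Ax2 are neighbouring copies, and Cpr57A shares 1488 bp of exon on the same strand with the odorant binding protein gene Obp57d, which was also at 0, so reads that counting could not assign to a single gene may be missing from them. A further 6 members had reads but too few to be tested, with a mean of at most 0.478 CPM, which left 60 tested members.

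Per length of exon, the leading member was Cpr65Au (FBgn0042119, 3L:6131242-6132109), a member of the dense 65A cluster, at 354 CPM per kb. Its level was 199, 179 and 152 CPM in wBerlin and 228, 159 and 201 CPM in Kdm3 KO, so the groups overlapped (adjusted p = 0.731). It shares 491 bp of its 526 bp of exon with the antisense gene asRNA:CR46005. The antisense gene was counted at 1.70 CPM, against a mean of 186 CPM for Cpr65Au over the 6 libraries. The strand setting was not stated, so how reads over the shared bases were assigned is not known. Next in order came Cpr97Eb at 159, Cpr100A at 148.5, Cpr67B at 123, Cpr62Bc at 122, Cpr49Ae at 94.2, Cpr49Ag at 70.6 and Cpr11B at 68.4 CPM per kb. These 8 leading genes come from 7 separate places in the genome. Cpr67B and Cpr62Bc, side by side in that order, differ in what happened between groups: Cpr67B held 129, 133 and 111 CPM in wBerlin and 118, 116 and 138 CPM in Kdm3 KO, while Cpr62Bc fell (its values are given with the called members). Cpr66D, which encodes a protein of the corneal lens, held 50.5, 45.4 and 35.5 CPM in wBerlin and 44.6, 36.5 and 36.0 CPM in Kdm3 KO, with overlapping groups (adjusted p = 0.677).

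**Figure D1:**
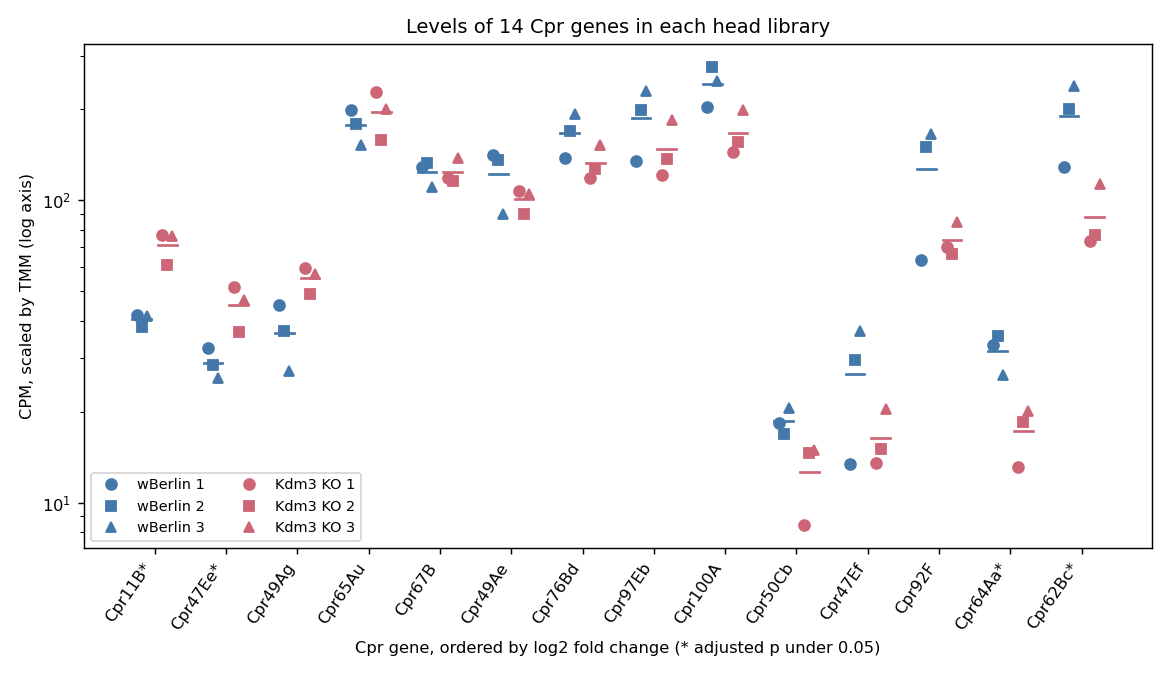
Levels in CPM on a log axis of the 14 Cpr genes named by rule, ordered from the most positive to the most negative log2 fold change, with a point for each library (wBerlin replicates 1 to 3 and Kdm3 KO replicates 1 to 3) and a bar at each group mean. The wBerlin and Kdm3 KO points of Cpr11B lie apart, at 38.1 to 41.7 and 61.0 to 76.7 CPM, while those of Cpr65Au overlap.

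Among the 60 tested members, 2 rose and 2 fell in Kdm3 KO at an adjusted p under 0.05 in edgeR's quasi-likelihood test with Benjamini-Hochberg adjustment over 14069 genes. That is 3.33% higher, where 2.15% of all tested genes were higher, and 3.33% lower, where 0.917% of all were lower. At these numbers the higher share is near the background and the lower share rests on 2 genes. Groups did not overlap for 13 of the 60 members, or 21.7%, against 18.7% of all tested genes, with 7 of the 13 higher and 6 lower in Kdm3 KO. The median log2 fold change of the tested members was 0.13, and that of all tested genes was 0.0357. Because whole heads were used, fewer cells of a type and less RNA per cell cannot be told apart in any of these values.

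Cpr11B (FBgn0030398, X:12553124-12554235, plus strand) had the smallest p of the family. It measured 41.7, 38.1 and 41.6 CPM in wBerlin and 76.7, 61.0 and 76.4 CPM in Kdm3 KO. Every Kdm3 KO library lay above every wBerlin library, with means of 40.5 ± 2.07 and 71.4 ± 8.97 CPM (SD, n = 3 each). The rise was 1.77-fold, a log2 fold change of 0.82 (SE 0.11, adjusted p = 0.00535). Its call was kept in all 14 alternative fits, including each fit without 1 library. The gene lies on the opposite strand within the span of hwt, with no shared exon bases, and hwt had a log2 fold change of -0.05 (adjusted p = 0.887).

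Cpr47Ee (FBgn0033602, 2R:11265126-11266856, plus strand), a gene of the 47E cluster, measured 32.5, 28.6 and 25.8 CPM in wBerlin and 51.6, 36.6 and 46.7 CPM in Kdm3 KO. The groups were separate, but Kdm3 KO replicate 2 stood only slightly above wBerlin replicate 1. The rise was 1.55-fold, a log2 fold change of 0.63 (SE 0.14, adjusted p = 0.0436). The call was close to the threshold and did not hold without wBerlin replicate 2 (adjusted p = 0.15), wBerlin replicate 3 (0.118), Kdm3 KO replicate 1 (0.12) or Kdm3 KO replicate 3 (0.123).

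Cpr62Bc (FBgn0035281, 3L:1840281-1842084, minus strand) was the most abundant of the called members. It measured 129, 200.5 and 239.6 CPM in wBerlin and 73.3, 76.7 and 114 CPM in Kdm3 KO. The lowest wBerlin library, replicate 1, lay close to the highest Kdm3 KO library, replicate 3. It fell 2.16-fold, with a log2 fold change of -1.11 ± 0.23 (SE) and an adjusted p of 0.0351. Without wBerlin replicate 2 the adjusted p was 0.103, without wBerlin replicate 3 it was 0.0711, and without Kdm3 KO replicate 1 or 2 it was 0.0868 or 0.0997.

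Cpr64Aa (FBgn0035510, 3L:4207838-4209178, minus strand) measured 33.2, 35.5 and 26.5 CPM in wBerlin and 13.1, 18.5 and 20.1 CPM in Kdm3 KO. All 3 wBerlin libraries were above all 3 Kdm3 KO libraries. It fell 1.85-fold, with a log2 fold change of -0.88 ± 0.17 (SE) and an adjusted p of 0.0236. This call did not hold without wBerlin replicate 2 (adjusted p = 0.0826), nor in the 4 libraries left after dropping wBerlin replicate 1 and Kdm3 KO replicate 2 (0.0677). The gene lies inside CG43367 on the opposite strand with no shared exon bases, and CG43367 had a log2 fold change of 0.01 (adjusted p = 0.985).

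**Figure D2:**
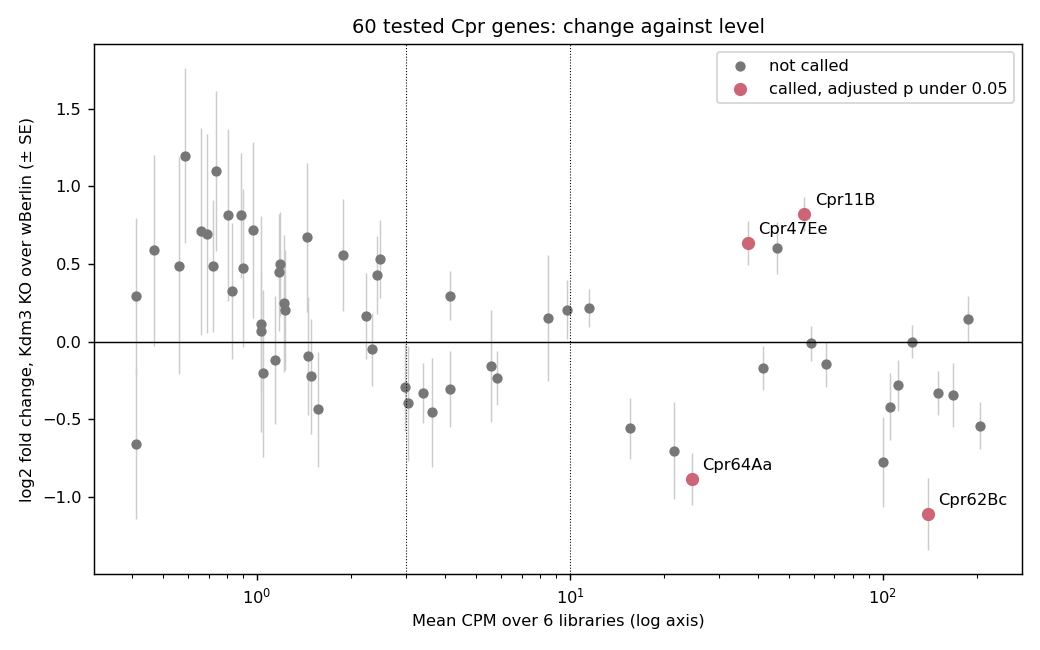
Log2 fold change of Kdm3 KO over wBerlin with its SE (vertical axis) against the mean CPM over the 6 libraries (log axis) for the 60 tested Cpr genes, with dotted lines at 3 and 10 CPM and the 4 called genes in red. Of the 32 members under 3 CPM, 24 lie above 0, and of the 19 members of at least 10 CPM, 13 lie below it.

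A further 6 members were named by rule for a small p without passing the threshold. Cpr100A (3R:30867521-30869184), the most abundant member by CPM, measured 204, 276 and 248 CPM in wBerlin and 144, 156 and 199.6 CPM in Kdm3 KO, and its groups did not overlap. The log2 fold change of -0.54 ± 0.15 (SE) did not pass (adjusted p = 0.101). Cpr49Ag (2R:12407793-12408523) measured 45.1, 36.8 and 27.3 CPM in wBerlin and 59.9, 49.1 and 57.1 CPM in Kdm3 KO, again without overlap, and its log2 fold change was 0.60 (adjusted p = 0.0983). Both passed in DESeq2, with adjusted p of 0.00494 for Cpr100A and 0.00956 for Cpr49Ag. DESeq2 called 3 members higher and 3 lower, 4 of them the members that edgeR called, at a background of 3.65% higher and 2.86% lower among all tested genes.

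Cpr50Cb measured 18.3, 16.9 and 20.5 CPM in wBerlin and 8.43, 14.5 and 14.9 CPM in Kdm3 KO, without overlap, with a log2 fold change of -0.56 (adjusted p = 0.203). The remaining 3, Cpr92F, Cpr76Bd and Cpr47Ef, share a pattern among the wBerlin libraries, in which replicate 1 was the lowest. Cpr92F measured 63.7, 151 and 166 CPM in wBerlin and 70.3, 66.5 and 85.0 CPM in Kdm3 KO. For this gene the wBerlin replicate 1 library lay below 3 of 3 Kdm3 KO libraries, and the log2 fold change was -0.78 (adjusted p = 0.238). Cpr47Ef measured 13.4, 29.7 and 36.8 CPM in wBerlin and 13.5, 15.1 and 20.5 CPM in Kdm3 KO, with a log2 fold change of -0.70 (adjusted p = 0.344). Cpr76Bd, the member with the longest exons, measured 138, 170 and 193 CPM in wBerlin and 119, 127 and 153 CPM in Kdm3 KO, with a log2 fold change of -0.33 (adjusted p = 0.312).

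Without wBerlin replicate 1, the same contrast called 6 members lower and 3 higher, where 3.24% of all tested genes were lower and 1.86% higher. The additional lower members were Cpr92F (log2 fold change -1.15, adjusted p = 0.00158), Cpr47Ef (-1.08, 0.0108), Cpr100A (adjusted p = 0.0197) and Cpr76Bd (adjusted p = 0.0387), and the additional higher member was Cpr49Ag (adjusted p = 0.028). In the 4 libraries left after also dropping Kdm3 KO replicate 2, 4 members were lower and 3 higher, where 3.39% of all tested genes were lower and 4.32% higher. These lower members included Cpr65Ea, named after its values were seen, which had 0.682, 1.10 and 1.19 CPM in wBerlin and 0.437, 2.48 and 0.311 CPM in Kdm3 KO and was far from the threshold in all 6 libraries (adjusted p = 0.965). Over the 13 members of at least 10 CPM with a negative log2 fold change, wBerlin replicate 1 was the lowest control in 9, or 69.2%, against 31.1% of such genes in the whole table. The antennal and muscle sums of wBerlin replicate 1 lay near those of Kdm3 KO in the same way, and their part in the levels of Cpr62Bc, Cpr92F and Cpr47Ef was not tested.

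**Figure D3:**
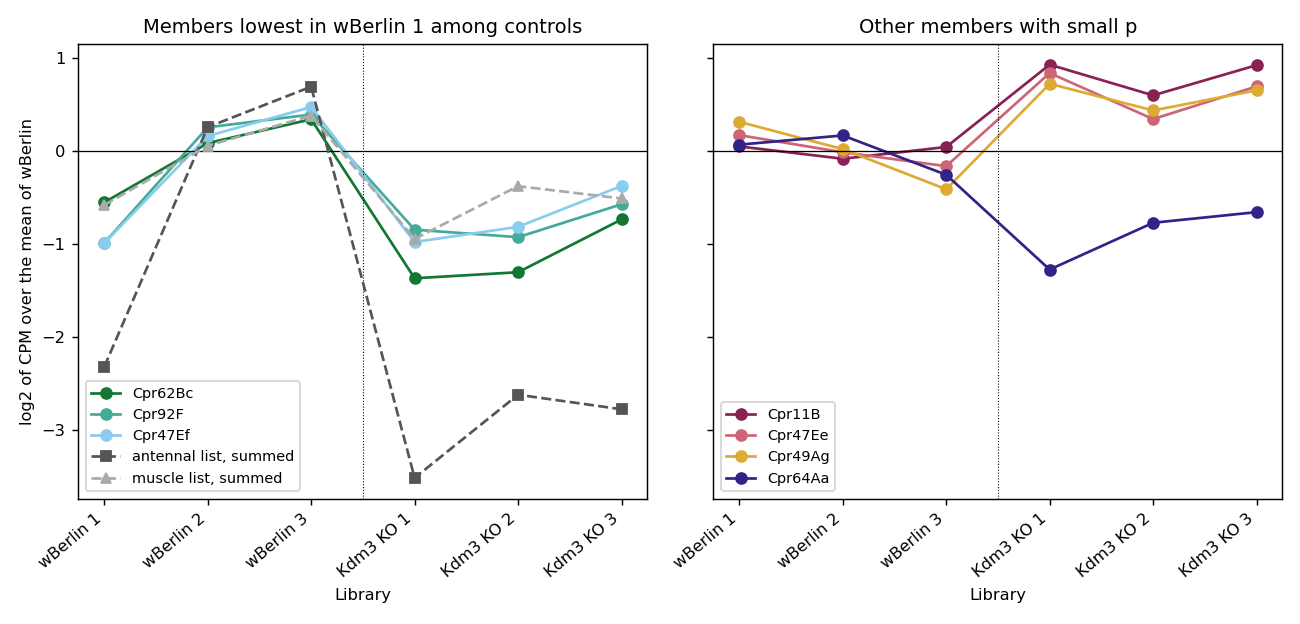
Log2 of CPM over the wBerlin mean in each of the 6 libraries, on the left for members lowest in wBerlin replicate 1 among the controls together with the summed antennal list (12 genes in the table) and muscle list (18 genes), and on the right for other members with a small p. On the left wBerlin replicate 1 sits below the other controls, and for Cpr92F, at 63.7 CPM, below the 66.5 to 85.0 CPM of Kdm3 KO, and on the right Cpr11B separates the groups.

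Cpr97Eb and Cpr49Ae complete the members named by level. Cpr97Eb measured 135, 198.5 and 229 CPM in wBerlin and 122, 138 and 184 CPM in Kdm3 KO, with overlapping groups and a log2 fold change of -0.34 (adjusted p = 0.521). Cpr49Ae measured 142, 136 and 89.9 CPM in wBerlin and 108, 90.4 and 105 CPM in Kdm3 KO, with a log2 fold change of -0.28 (adjusted p = 0.504). It passed the threshold only in the fit without wBerlin replicate 3 (adjusted p = 0.0292), the library in which it was lowest.

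Ratios between neighbouring members were taken for 6 pairs, chosen after the values were seen and given without a test. Other pairs were not computed. Cpr49Ae and Cpr49Ag lie in the same direction on 2R with Cpr49Af between them. The ratio of CPM of Cpr49Ag to Cpr49Ae was 0.319, 0.27 and 0.304 in wBerlin and 0.557, 0.543 and 0.544 in Kdm3 KO, so all 3 Kdm3 KO libraries were above all 3 wBerlin libraries. At 62B, Cpr62Bb, 5116 bp from Cpr62Bc, measured 57.9, 68.8 and 80.1 CPM in wBerlin and 59.5, 53.6 and 73.5 CPM in Kdm3 KO, with a log2 fold change of -0.15 (adjusted p = 0.729). The ratio of Cpr62Bb to Cpr62Bc was 0.448, 0.343 and 0.334 in wBerlin and 0.812, 0.699 and 0.647 in Kdm3 KO. The groups of ratios were separate here too. So were those of Cpr64Aa over Cpr64Ab, between 36.2 and 61.5 in wBerlin and between 11.5 and 25.1 in Kdm3 KO, although Cpr64Ab had at most 35 reads in a library. For Cpr76Bc over Cpr76Bd the ratio was between 0.0187 and 0.0265 in wBerlin and between 0.0305 and 0.0399 in Kdm3 KO, again without overlap. In the other two pairs the groups overlapped: for Cpr47Ee over Cpr47Ef, which are 58 bp apart on opposite strands, the ratio was 2.43, 0.963 and 0.699 in wBerlin and 3.83, 2.43 and 2.28 in Kdm3 KO, and for Cpr97Ea over Cpr97Eb it was between 0.591 and 0.715 in wBerlin and between 0.539 and 0.678 in Kdm3 KO. Such ratios show unequal change and do not say which gene of a pair changed.

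Members at low and at high levels differed in the sign of their fold changes. Of the 19 members with at least 10 CPM, 13 had a negative and 6 a positive log2 fold change, with a median of -0.28, where the median of all tested genes of at least 10 CPM was -0.01 and 46.8% were positive. Over all fits the negative members of this class numbered between 12 and 14. The median of all 19 members of the class lay between -0.34 and -0.16, where that of all genes at this level lay between -0.07 and 0.06. The 9 members between 3 and 10 CPM had a median of -0.23, where that of all genes at this level was 0.02. Of the 32 tested members under 3 CPM, 24 had a positive and 8 a negative log2 fold change, with a median of 0.44, where the median of all tested genes under 3 CPM was 0.24 and 73.0% were positive.

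The positive values of the low members came with Kdm3 KO replicate 2, which was the highest library for 27 of the 32, or 84.4%. The median over these 32 members was 0.79, 0.985 and 1.01 CPM in wBerlin and 0.875, 1.93 and 0.754 CPM in Kdm3 KO, while over all 4640 tested genes at this level it was 0.862, 1.02 and 0.961 CPM in wBerlin and 0.914, 1.7 and 0.754 CPM in Kdm3 KO. In both, Kdm3 KO replicate 2 was high and the other Kdm3 KO libraries lay within or below the wBerlin range. Not every low member followed these medians. Cpr65Az measured 0.359, 0.584 and 0.458 CPM in wBerlin and 0.676, 1.74 and 0.621 CPM in Kdm3 KO. It was highest in replicate 2, but every Kdm3 KO library lay above every wBerlin library. Its log2 fold change of 1.10 (SE 0.51) did not pass (adjusted p = 0.37). Cpr64Ab, the neighbour of Cpr64Aa, measured 0.539, 0.657 and 0.732 CPM in wBerlin and 0.994, 1.61 and 0.799 CPM in Kdm3 KO, also without overlap (adjusted p = 0.401). Without Kdm3 KO replicate 2, 13 of the 32 low members were positive and 19 negative, with a median of -0.12, where all genes at this level had -0.17. The summed gut list was 121, 135 and 134 CPM in wBerlin and 145.5, 345 and 156.5 CPM in Kdm3 KO, highest in replicate 2 but above wBerlin in all 3 Kdm3 KO libraries. Of its 21 tested genes 20 had a positive log2 fold change and 2 rose, where 2.15% of all tested genes were higher. The positive share of all tested genes was 73% under 3 CPM, 53.6% from 3 to 10 CPM and 46.8% at 10 CPM or more. Act88F, an actin of flight muscle, was at 1276 CPM in replicate 2 against at most 246.7 CPM in the others. Their part in the low Cpr levels was not tested.

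**Figure D4:**
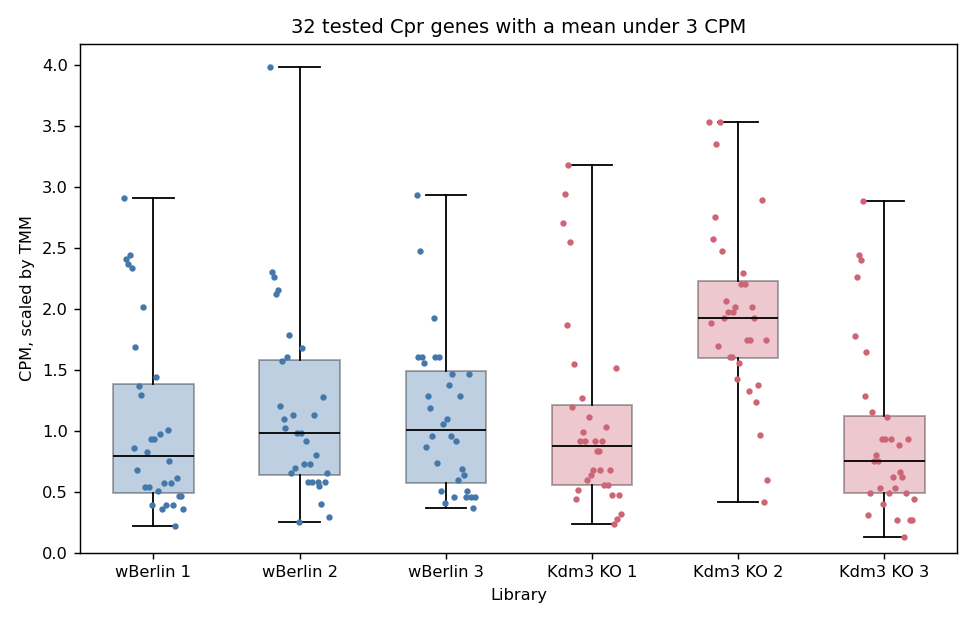
CPM of each of the 32 tested Cpr genes with a mean under 3 CPM in the 6 libraries (points), with a box from the lower to the upper quartile, a line at the median and whiskers to the lowest and highest gene. The median was 1.93 CPM in Kdm3 KO replicate 2 and between 0.754 and 1.01 CPM in the other 5 libraries.

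Summed over all 69 members, Cpr transcripts made up 1679, 2035 and 2013 CPM in wBerlin and 1526, 1478 and 1803 CPM in Kdm3 KO. The means were 1909 ± 199.4 and 1602 ± 175.6 CPM (SD, n = 3 each), and wBerlin replicate 1 lay below Kdm3 KO replicate 3, so the groups overlapped. The members under 3 CPM contributed 34.7, 39.2 and 37.0 CPM in wBerlin and 35.5, 66.9 and 31.9 CPM in Kdm3 KO. The sum is therefore nearly all from the abundant members.

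Other genes of the cuticle were given beside the Cpr family to set these values in context. The shares of all tested genes to hold against the calls of each list were 2.15% higher and 0.917% lower. Of 20 tested genes of the Rebers and Riddiford family with other names, 1 rose and 1 fell. Pcp, a pupal cuticle protein, rose by 0.90 on the log2 scale, from 3.16, 3.14 and 2.70 CPM to 4.97, 6.10 and 5.81 CPM (adjusted p = 0.0222). Acp65Aa, which is made by the epidermis during formation of the adult cuticle, measured 11.0, 13.5 and 7.60 CPM in wBerlin and 5.29, 6.47 and 4.04 CPM in Kdm3 KO. Its log2 fold change of -1.02 passed (adjusted p = 0.0476), a call that was lost with RLE size factors (adjusted p = 0.0535) and in 8 other alternatives, among them the fits without wBerlin replicate 1 or 2 and without Kdm3 KO replicate 1 or 3 (up to 0.192). The groups of both genes did not overlap. Pcp is nested on the opposite strand within an intron of Gart. Pcp did not pass without any 1 of the 3 wBerlin libraries or without Kdm3 KO replicate 3, with adjusted p between 0.064 and 0.113.

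Among 45 tested genes of other cuticle protein families, none rose and 2 fell. At an unadjusted p under 0.05, 4 were higher and 9 lower by edgeR. The share of all tested genes at this unadjusted threshold was not taken. These counts, and the unadjusted counts of the lists below, therefore have no background and show no shift of a list. Acp1, an adult cuticle protein, measured 117, 174 and 165 CPM in wBerlin and 80.8, 57.6 and 81.3 CPM in Kdm3 KO, and fell, with a log2 fold change of -1.05 ± 0.18 (SE), an adjusted p of 0.0122 and its call kept in every alternative. Vajk2, of a small family of insect cuticle proteins, measured 569, 1047 and 1281 CPM in wBerlin and 342, 286 and 501 CPM in Kdm3 KO. This gene fell, at a log2 fold change of -1.36 (adjusted p = 0.0398), and without wBerlin replicate 2 or 3 or Kdm3 KO replicate 1 or 2 the adjusted p was between 0.0887 and 0.118. As with Cpr62Bc, wBerlin replicate 1 was the lowest of its controls.

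Few genes of chitin metabolism and of tanning passed the threshold, where 2.15% of all tested genes were higher and 0.917% lower. Of 33 tested genes of chitin synthesis, assembly and turnover, 1 rose and none fell (3 higher and 6 lower at an unadjusted p under 0.05 by edgeR). Idgf5, a secreted chitinase-like protein without enzyme activity, rose from 22.9, 24.0 and 16.6 CPM to 53.2, 40.7 and 60.2 CPM, by 1.28 on the log2 scale (adjusted p = 0.00539). Of 25 tested tanning genes, 2 rose and 1 fell. Gld, which encodes glucose dehydrogenase, fell by 0.67 on the log2 scale, from 39.4, 45.4 and 39.9 CPM to 26.6, 25.0 and 26.9 CPM (adjusted p = 0.00671). The dopachrome conversion enzyme gene yellow-f2 rose by 0.54 (adjusted p = 0.03) and the prophenoloxidase gene PPO1 by 0.63 (adjusted p = 0.0311) on the log2 scale, and both calls were lost in fits without single libraries, without wBerlin replicate 3 or Kdm3 KO replicate 1 or 3 for both and also without wBerlin replicate 1 or 2 for PPO1 (adjusted p between 0.0582 and 0.152). The core enzymes of the dopamine route, added here for their role, did not pass: ple had a log2 fold change of -0.33 (adjusted p = 0.419) and Ddc one of -0.43 (adjusted p = 0.0643).

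**Figure D5:**
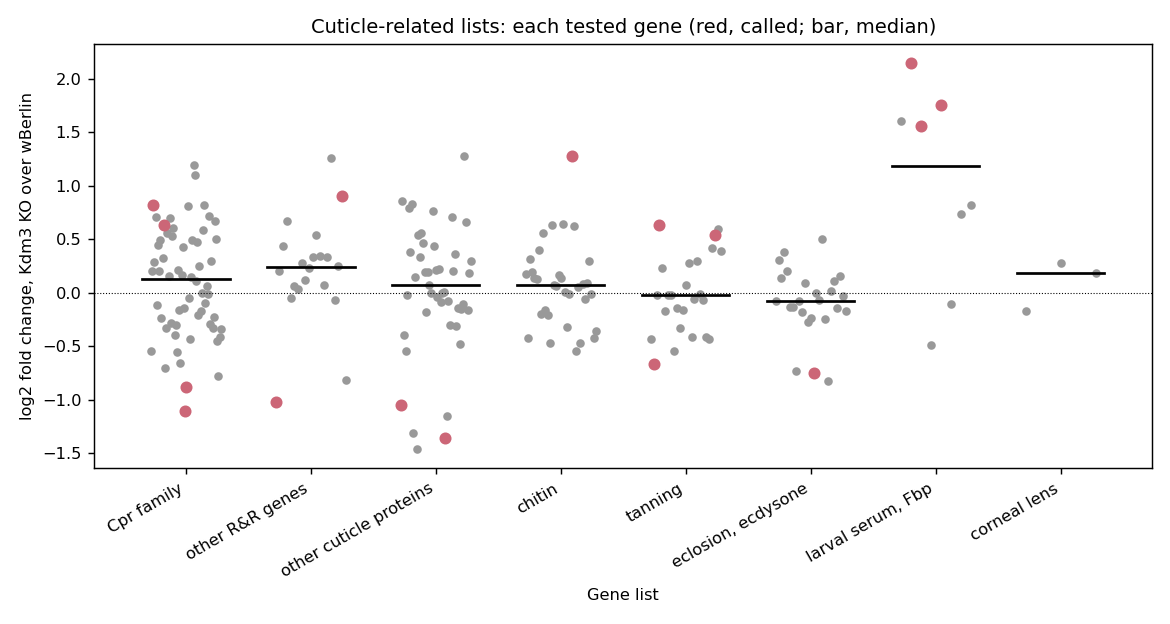
Log2 fold change of Kdm3 KO over wBerlin for each tested gene of the Cpr family and of 7 other cuticle-related and maturation-related lists, with called genes in red and a bar at each median. The medians lie between -0.07 and 0.24 except for the larval list (6 serum and fat body genes and 2 glue genes), whose 8 tested genes have a median of 1.19.

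Flies of 2 to 7 days differ in how far the cuticle has matured, so genes tied to eclosion and to larval stores were set beside the Cpr family. Of 25 tested genes of eclosion and ecdysone timing, none rose and 1 fell (1 higher and 2 lower at an unadjusted p under 0.05 by edgeR), with a median log2 fold change of -0.07. Hr38, a nuclear receptor that takes part in the ecdysone response and is also induced by neuronal activity, fell from 72.8, 66.5 and 64.4 CPM to 47.0, 37.9 and 35.9 CPM, by 0.75 on the log2 scale (adjusted p = 0.00867). The hormone genes of wing expansion and tanning, Burs and Pburs, and the receptor gene rk did not pass (adjusted p of 0.836, 0.718 and 0.752).

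Of 8 tested genes of a larval list, 6 of them serum and fat body genes and 2 the salivary glue genes Sgs3 and Sgs8, 3 rose and none fell, with a median log2 fold change of 1.19 (4 higher and 0 lower at an unadjusted p under 0.05 by edgeR). Sgs3 and Sgs8 had log2 fold changes of 0.74 and 0.82, were under 1 CPM on average and did not pass (adjusted p of 0.694 and 0.633). The serum and fat body proteins are made by the larval fat body and decline in the young adult, although Lsp2 is also made in the adult fat body. Lsp1gamma rose from 17.7, 15.1 and 31.7 CPM to 52.6, 79.7 and 84.3 CPM (adjusted p = 0.00881), a log2 fold change of 1.75 that did not pass in the 4 libraries without wBerlin replicate 1 and Kdm3 KO replicate 2 (adjusted p = 0.0588). Fbp2 rose by 2.15 (adjusted p = 0.0202) and Lsp1alpha by 1.55 (adjusted p = 0.0398) on the log2 scale. Fbp2 did not pass without wBerlin replicate 2 (adjusted p = 0.106) or 3 (0.0813), nor Lsp1alpha without wBerlin replicate 1 or 2 or Kdm3 KO replicate 2 or 3 (between 0.074 and 0.159). Members of the list did not move together: Lsp1beta had a log2 fold change of -0.49 (adjusted p = 0.488) and Lsp2 one of -0.10 (adjusted p = 0.951). The 9 genes of the larval list summed to 345, 383 and 211 CPM in wBerlin and 360, 352 and 613 CPM in Kdm3 KO. The groups of these sums overlapped. In the general fat body list, which shares Fbp1 and Lsp2 with the larval list, 6 of 15 tested genes rose and 1 fell. Of all tested genes, 2.15% were higher and 0.917% lower. The summed level of the fat body list was 16180, 14320 and 10100 CPM in wBerlin and 27200, 21130 and 25820 CPM in Kdm3 KO.

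Some calls fell on genes of adult, pupal or larval stages, while most tested genes of the same lists were not called. The adult cuticle genes Acp65Aa and Acp1 and the Cpr genes Cpr62Bc and Cpr64Aa were called lower. Cpr11B, Cpr47Ee and the pupal cuticle gene Pcp were called higher. Among these cuticle genes, only Cpr11B and Acp1 kept their call in every alternative. Pcp and Acp65Aa were the only calls among 20 tested genes of the Rebers and Riddiford family with other names. Of the 8 tested genes of the larval list, 3 were called higher, and 6 had a positive and 2 a negative log2 fold change. The sources used here give no direction of change with age for the called Cpr genes, and 56 of the 60 tested Cpr genes did not pass. No library gives the age of its flies within the 2 to 7 days, so a difference in age between the groups and the genotype cannot be told apart. A part of age in the Cpr levels was not tested.

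Among other head tissues with cuticle, the summed level of 8 tracheal genes was 1947, 2268 and 2233 CPM in wBerlin and 1610, 1505 and 2016 CPM in Kdm3 KO. The groups overlapped and 0 of 8 were called (1 higher and 5 lower at an unadjusted p under 0.05 by edgeR). These genes include serp and verm of the chitin list and Gasp of the other cuticle protein families, so the tracheal list partly repeats those lists. The corneal lens genes Crys and retinin had log2 fold changes of 0.28 (adjusted p = 0.358) and 0.18 (adjusted p = 0.725). Of 11 tested antennal genes, 7 fell and none rose, where 0.917% of all tested genes were lower. The antennal sum of wBerlin replicate 1, 56.7 CPM, lay nearer to Kdm3 KO (24.8 to 46.1 CPM) than to the other wBerlin replicates (338 and 457 CPM). The summed photoreceptor list lay between 34290 and 52920 CPM and the neuronal list between 4723 and 5855 CPM over the 6 libraries, with overlapping groups in each. Which of these tissues the Cpr transcripts came from was not measured.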

How the data were processed

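RNA of adult heads was measured in 3 wBerlin and 3 Kdm3 KO libraries, grouped by the labels. The authors deposited raw counts of reads for each gene. Per the submitters' processing notes, the tools were STAR, SAMtools, HTSeq and DESeq2 and the build was BDGP6, while versions, settings and the use of strand were not given in the sources used here. Of 17753 listed genes, 17626 were matched by ID to symbols and positions of Ensembl release 115 (BDGP6.54).

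From the counts, edgeR 4.0.16 in R 4.3.3 was run with TMM normalization, filterByExpr by genotype, glmQLFit and glmQLFTest, with genotype as the only term, two-sided, and Benjamini-Hochberg adjustment over 14069 genes (303 higher and 129 lower at an adjusted p under 0.05). The SE of a log2 fold change is its size over the square root of F. The biological coefficient of variation was 18.2%. Levels per length divide CPM by the union of exons. Between libraries of a group, chi-square over its degrees of freedom was 15.4 to 60.2, so none was a copy. The script was tested on simulated data. Limits from 3 counts cover counting error only, since PCR reads without molecular identifiers are not independent molecules.

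A Cpr gene left out by the selection is not reported here. The members and the gene lists were chosen with earlier results of these data known. Genes were named by a rule: every called member, the 8 members highest per length and the 10 with the smallest p. Of each cuticle-related or maturation-related list, at most 4 called genes were named, or the 2 with the smallest p where none was called. Other genes were named for their role or position after their values were seen. Alternatives were RLE size factors, total count scaling, no filter, a mean of at least 5 CPM, DESeq2 1.42.0, limma 3.58.1 (voom), the replicate number as a block, each library left out, and 4 libraries without wBerlin replicate 1 and Kdm3 KO replicate 2.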

Additional observations from a re-analysis of the deposited data

How the results depend on the processing

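The calls of 2 higher and 2 lower Cpr members were the same genes with RLE size factors, total count scaling, no filter, a mean of at least 5 CPM and limma voom. The counts ranged from 1 to 3 higher and from 0 to 6 lower over the fits without 1 library, and 4 were lower in the 4 libraries. Over the same fits without 1 library, the counts of all genes ranged from 181 to 574 higher and from 62 to 467 lower of 14160 to 14532 tested. The cause was not tested. The median log2 fold change of tested members was -0.165 with the 5 CPM filter, which left 23 members, and -0.314 in the 4 libraries, and it lay between -0.218 and 0.235 without 1 library. The lowest value was without Kdm3 KO replicate 2. In the 7 cuticle-related and maturation-related lists, 7 genes were higher, 3 of them in the larval list. In the same lists 5 genes were lower, 1 of them in the list of eclosion and ecdysone timing. The lower count was 8 without a filter, 16 in DESeq2, 15 with the replicate block and 14 in the 4 libraries. Over all tested genes it was 129 with the settings used above, and 266, 402, 362 and 476 in these fits in that order. Without 1 library, the lists had between 3 and 8 higher and between 3 and 13 lower genes. Cpr67B, at 0.000543, changed sign with RLE size factors (-0.00202), no filter (-0.0605), the 5 CPM filter (-9.02e-05), DESeq2 (-0.00214) and the replicate block (-0.000198), and lay between -0.122 and 0.0529 without 1 library. No scaling moved the median of all genes by over 0.1. Libraries with the same replicate number did not all deviate together (correlations of 0.341, 0.246 and -0.048), and replicate 3 did not correlate best with its own number, so the numbers were not used as pairs. With the replicate block, 3 members were higher and 3 lower, with Cpr49Ag (adjusted p = 0.0274) and Cpr100A (0.028) added to the 4, and 417 of all genes were higher and 362 lower, against 303 and 129.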
